A study of Mus musculus with 3 samples.

Results

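The calcium-binding proteins of cortical neurons were described here through 10 genes. They comprise 3 buffers that mark classes of interneurons (Calb1, Calb2 and Pvalb) and 7 sensors (Vsnl1, Ncald, Hpca, Hpcal4, Ncs1, Caln1 and Cabp1). The genes were chosen by symbol and role, with earlier results of these data known, from 18121 protein-coding genes with a row in the deposited table. Cortical neurons were dissociated from wild-type Swiss-Webster mouse embryos at embryonic day 16, an outbred stock, and kept in neurobasal medium with B27, per the labels' protocols. All 3 libraries form 1 group without treatment, so no condition was compared and the comparisons below are between genes of the same libraries. The protocol text also describes etoposide, a poison of type II topoisomerases, but the labels of these libraries give the treatment as none. How long the neurons were cultured, and whether the libraries came from separate cultures, is not stated in the labels. Every SD and p-value thus speaks of variation among 3 libraries, part or all of which may be technical.

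All of these proteins belong to the EF-hand superfamily, in which a helix, a short acidic loop and a second helix together hold a calcium ion. Buffers such as calbindin, calretinin and parvalbumin bind calcium in bulk and shape how long it stays free. In the cortex their genes are used to tell classes of inhibitory neurons apart. Sensors such as hippocalcin and neuronal calcium sensor 1 change shape on binding calcium and act on membranes, channels or enzymes, and several carry a myristoyl group that calcium exposes.

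Levels are given in TPM, a share of reads scaled by transcript length, so that genes can be set side by side. The value of a gene is the row of its longest protein-coding transcript. The highest row of the gene, which is not protein-coding for Ncs1 and Calb1, is a check, since rows of 1 gene share reads. The reads of these rows, recovered from the values, added up to 32157382, 28383673 and 27937712 in libraries 1, 2 and 3, over 17745 genes. Pan-neuronal markers were present, with all 6 detected and summed levels of 1534 to 1776 TPM, and all 6 interneuron markers were detected, with sums of 185 to 288 TPM. All 6 markers of excitatory cortical neurons were detected as well (197 to 201 TPM). Glial markers were present too: all 6 astrocyte markers were detected (381 to 457 TPM) and 5 of 6 oligodendrocyte lineage markers (48.8 to 80.3 TPM). Microglial markers were near 0, with 1 of 6 detected and sums of 1.19 to 2.26 TPM and Tmem119 listed at 0 in all 3 libraries. Fewer cells of a type and less RNA per cell cannot be told apart in such bulk libraries.

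Nearly all of the genes were expressed, and the median sensor stood above the median buffer, although Caln1 and Cabp1 were lower than Calb1. At a mean of at least 1 TPM, 9 of 10 genes were detected, where 61.5% of protein-coding genes were. The same 9 also passed 10 TPM, which 26.4% of protein-coding genes did, and 2 of 10 passed 100 TPM, which 1.58% did. These 10 genes were chosen with earlier results of the data known, so the counts describe them and carry no test. Their median was 4.95 on the log2(TPM + 1) scale, beside 1.94 for all 18121 genes. The 7 sensors had a median log2 level of 5.58 ± 0.13 and the 3 buffers one of 4.17 ± 0.03 (SD, n = 3). The difference was 1.47, 1.52 and 1.24 in libraries 1, 2 and 3, a mean of 1.41 ± 0.15. It was 2.44 with list means in place of medians, because Pvalb then weighs on the buffers.

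**Figure D1:**
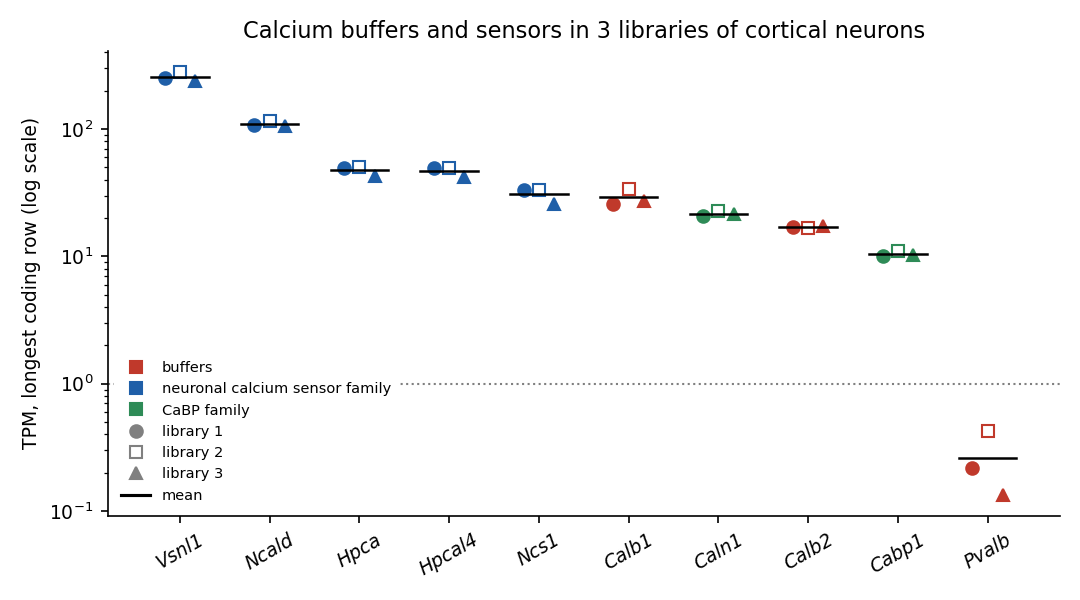
TPM of the longest coding row of each gene, on a log axis, in libraries 1, 2 and 3 (symbols) with the mean (bar). Colours give the family and the dotted line marks 1 TPM. Vsnl1 lies highest at a mean of 256 TPM, 9 genes lie above 10 TPM in every library, and Pvalb lies below 1 TPM in every library.

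The neuronal calcium sensor family held the 5 highest of the 10 genes. Vsnl1 encodes visinin-like protein 1, a myristoylated sensor of neurons that is also measured in cerebrospinal fluid as a sign of neuronal injury. Its transcript (ENSMUST00000072299, mm10 chromosome 12, 11325247 to 11436649, minus strand) stood at 252, 281 and 236 TPM in libraries 1, 2 and 3, a mean of 256 ± 22.5 TPM. Vsnl1 ranked 63 among the protein-coding genes and made up 45.0% ± 0.719 of the summed level of the 10 genes. Ncald encodes neurocalcin delta, a sensor linked to clathrin-coated vesicles and endocytosis. Its transcript (ENSMUST00000090150, chromosome 15, 37366175 to 37792433, minus strand) stood at 108, 115 and 106 TPM, a mean of 109.6 ± 4.52 TPM. No library of Ncald reached the lowest of Vsnl1. Vsnl1 exceeded Ncald by 1.22 ± 0.07 on the log2(TPM + 1) scale, with 1 sign in every library, and by 1.05 ± 0.06 on the highest rows. Vsnl1 and Ncald together took 64.3% ± 0.557 of the summed level.

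Hpca and Hpcal4 stood at nearly the same level. Hpca encodes hippocalcin, named for its abundance in the hippocampus, where it links calcium to the slow afterhyperpolarisation. Its transcript (ENSMUST00000116444, chromosome 4, 129111570 to 129122036, minus strand) stood at 49.8, 50.5 and 42.5 TPM, a mean of 47.6 ± 4.43 TPM. Hpcal4 encodes visinin-like protein 2, which modulates presynaptic calcium channels. Its transcript (ENSMUST00000059667, chromosome 4, 123183227 to 123194701, plus strand) stood at 49.03, 49.5 and 42.2 TPM, a mean of 46.9 ± 4.096 TPM. The 2 ranges overlapped almost wholly, with library 3 the lowest for both genes. The log2 difference Hpca minus Hpcal4 was 0.02 ± 0.01, positive in 3 of 3 libraries, and 0.48 ± 0.01 on the highest rows. Ncald lay above Hpca by 1.19 ± 0.10 (log2 scale), higher in each of the 3 libraries, or 0.89 ± 0.09 on the highest rows.

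Ncs1 encodes neuronal calcium sensor 1, the mammalian frequenin, which acts on a phosphatidylinositol kinase and on transmitter release. Its transcript (ENSMUST00000000199, chromosome 2, 31245823 to 31295989, plus strand) stood at 33.3, 33.1 and 25.9 TPM, a mean of 30.8 ± 4.20 TPM. Library 3 was apart from the other libraries on this row as well. The highest row of Ncs1 is a nonsense-mediated decay row of 498 bases, all shared with the longest row. That shorter row stood at 41.2, 39.2 and 38.3 TPM, a mean of 39.6 ± 1.48 TPM, with library 3 close to library 2. Ncs1 lay below Hpca by a log2 difference of -0.62 ± 0.07 and below Hpcal4, with Hpcal4 minus Ncs1 at 0.60 ± 0.07, each in 3 of 3 libraries. On the highest rows Hpcal4 exceeded Ncs1 by 0.24 ± 0.10.

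Members of this family are close in sequence, so reads of 1 gene could in principle be given to another. The first EF-hand loop that matches the PROSITE EF-hand pattern starts at residue 73 in all 6 of the proteins compared (the 5 above and Hpcal1, the nearest relative of hippocalcin). Its coding bases are shown because they show how far each relative departs from hippocalcin in 1 aligned stretch. They are given 5′ to 3′ on the coding strand, from GENCODE M21 transcripts (mm10), with capitals for bases that differ from Hpca.
Hpca, chr4:129118490-129118525, minus strand: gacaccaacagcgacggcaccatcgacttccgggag
Hpcal1, chr12:17786387-17786422, plus strand: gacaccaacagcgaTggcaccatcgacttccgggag
Hpcal4, chr4:123189079-123189114, plus strand: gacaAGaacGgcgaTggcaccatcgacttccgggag
Vsnl1, chr12:11332127-11332162, minus strand: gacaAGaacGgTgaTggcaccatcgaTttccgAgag
Ncald, chr15:37397183-37397218, minus strand: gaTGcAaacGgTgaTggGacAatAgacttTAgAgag
Ncs1, chr2:31280793-31282332, plus strand: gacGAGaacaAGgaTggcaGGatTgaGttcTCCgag

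Over these 36 bases Hpcal1 differed from Hpca at 1 base, Hpcal4 at 4, Vsnl1 at 7, Ncald at 12 and Ncs1 at 13. The loop of Ncs1 is split by an intron, so its coordinates span 1540 genomic bases. Over the whole coding sequence Hpca and Hpcal1 were 86.0% identical, Hpcal4 and Vsnl1 82.4%, and Hpca and Ncald 79.9%, while Hpca and Ncs1 were 66.1% identical. The longest identical run of any pair in this family was 46 bases, in Hpca and Ncald. No 50-base word of the Ncald, Hpcal4, Vsnl1 or Ncs1 transcripts occurred in an annotated transcript of another locus, where genes that overlap their own were not counted. Of 1798 words of the Hpca transcript 10 did, and Hpcal1 had 92.8% unique words. As for overlapping genes, the longest row of Hpca shares 57 exonic bases with Tmem54 on the opposite strand, and that of Ncald shares 347 with antisense Gm28221 and 179 with Gm49397 on its own strand. The gene of origin of reads there is uncertain. Each of the 6 coding sequences held 3 loops that match the pattern and began with methionine and glycine, the residue to which myristate is joined. Close relatives stood at different levels. Vsnl1 exceeded Hpcal4 by 2.43 ± 0.08 (log2 scale), higher in each of the 3 libraries, and Hpca exceeded Hpcal1 by 1.47 ± 0.12, also in 3 of 3. Hpcal1 itself stood at 16.6, 16.6 and 16.2 TPM, a mean of 16.5 ± 0.183 TPM, and none of its values reached the lowest of Hpca.

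Caln1 and Cabp1, the CaBP sensors, were lower than the 5 neuronal calcium sensors among the 10 genes, though Caln1 was higher than Hpcal1. Caln1 encodes calneuron 1, a sensor held in Golgi membranes by a tail anchor. Its transcript (ENSMUST00000111288, chromosome 5, 130448801 to 130840645, plus strand) stood at 20.9, 22.6 and 21.5 TPM, a mean of 21.6 ± 0.841 TPM. Cabp1 encodes calcium-binding protein 1 and, from another first exon, the longer caldendrin of the postsynaptic density, and its products modulate calcium channels and inositol trisphosphate receptors. The row of its longest transcript (ENSMUST00000112113, chromosome 5, 115168689 to 115194381, minus strand) stood at 10.1, 10.9 and 10.2 TPM, a mean of 10.4 ± 0.450 TPM. The log2 difference Cabp1 minus Caln1 was -0.99 ± 0.01, lower in 3 of 3 libraries, but -0.05 ± 0.02 on the highest rows.

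Of the 6 rows of Cabp1 the 3 coding rows held nearly equal reads over unequal lengths. So did a processed transcript (862, 777 and 768 reads) and a nonsense-mediated decay row (836, 756 and 739). A retained-intron row held fewer, 547, 511 and 544. The longest row has 1621 exonic bases, a coding length of 1050 bases and 840, 767 and 758 reads in libraries 1, 2 and 3. A shorter coding row of 746 bases, with a coding length of 501, held 825, 750 and 727 reads and stood highest, at 22.1 ± 1.05 TPM. The longest row has 985 exonic bases that the shorter row lacks, the shorter row has 110 of its own, and their reads differed by only 15, 17 and 31. A coding row of 1370 bases shares 893 with the longest row, lacks 728 of its bases and has 477 of its own. It held 871, 793 and 791 reads, more than the longest row in 3 of 3 libraries. The level given for Cabp1 thus depends by 2.11 times on the row taken. Only Cabp1 among the 10 genes had a highest row at least 1.5 times the longest coding row.

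**Figure D2:**
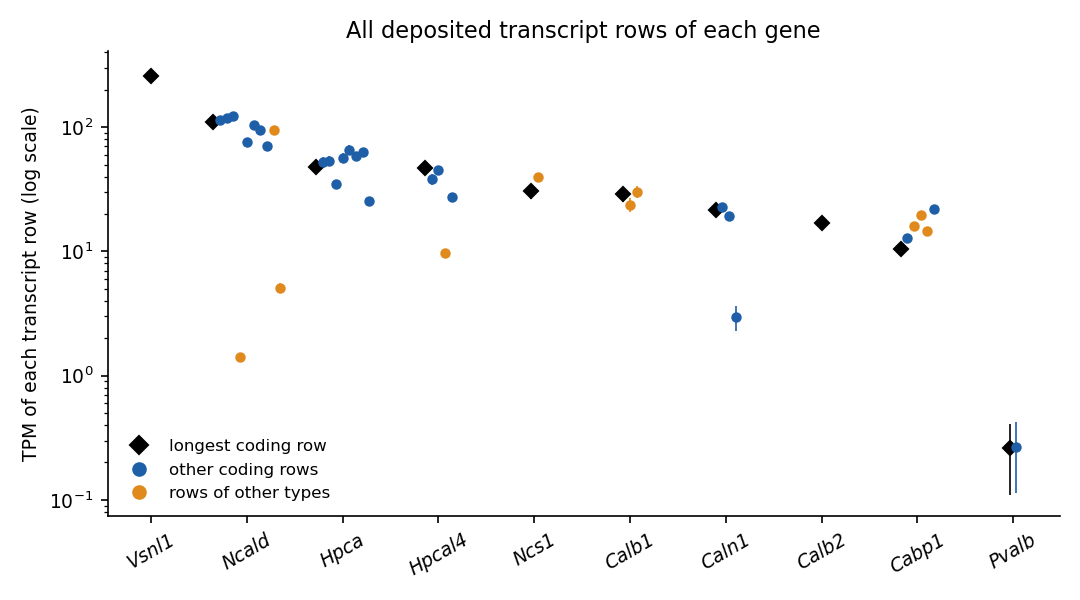
TPM of all 44 deposited transcript rows of the 10 genes on a log axis, as mean ± SD of the 3 libraries, with the longest coding row as a black diamond. Rows of Ncald reach down to 1.40 TPM and those of Caln1 to 2.95 TPM, while all 6 rows of Cabp1 lie between 10.4 and 22.1 TPM.

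Rows of Ncald and Caln1 differ in where they start. Ncald had 11 rows, 8 of them coding. The longest coding row spans 426 kb. This row, which begins at the distal end of the gene, held 20731, 18491 and 18042 reads. A coding row that begins at 37459360 shares 3211 bases with it, lacks 522 and has 196 of its own. It held 20474, 18336 and 17824 reads, a difference from the longest row of -257, -155 and -218 reads. Noncoding rows that share 55 and 161 bases with the longest row and lie upstream of that proximal start stood at 1.40 ± 0.0715 and 5.11 ± 0.430 TPM. For Caln1, whose longest coding row spans 391.8 kb, a coding row of 568 bases in 2 exons stood at 2.95 ± 0.659 TPM, with 103, 55 and 80 reads. The form of Caln1 with the longest coding sequence, which begins further upstream, stood at 19.3 ± 0.414 TPM.

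Of the buffers, calbindin and calretinin were well expressed and parvalbumin was not. Calb1 encodes calbindin, found in somatostatin interneurons and in excitatory neurons of several regions. Its transcript (ENSMUST00000029876, chromosome 4, 15881264 to 15908064, plus strand) stood at 25.9, 33.8 and 27.4 TPM in libraries 1, 2 and 3, a mean of 29.0 ± 4.23 TPM. Calb2 encodes calretinin, a marker of interneurons that often also express Vip, and of Cajal-Retzius cells, the early neurons of the outermost layer. Its single row (ENSMUST00000003754, chromosome 8, 110142539 to 110168206, minus strand) stood at 17.01, 16.6 and 17.3 TPM, a mean of 16.96 ± 0.323 TPM. The values of Calb1 lay above all those of Calb2, and Calb1 exceeded Calb2 by 0.73 ± 0.22 (log2 scale), higher in each of the 3 libraries. Both buffers share 65.9% of their aligned coding bases, with no identical run over 12 bases, and no 50-base word of either occurred at another locus.

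Pvalb encodes parvalbumin, a fast-spiking interneuron marker that appears after birth. Its transcript (ENSMUST00000005860, chromosome 15, 78191114 to 78204237, minus strand) stood at 0.220, 0.426 and 0.134 TPM, from 11, 18 and 6 reads. Its mean of 0.260 ± 0.150 TPM was below the detection limit in each library, at percentile 29.7 of protein-coding genes. The second Pvalb row held the same numbers of reads. Calb1 exceeded Pvalb by 4.57 ± 0.10 and Calb2 exceeded it by 3.84 ± 0.19 in log2(TPM + 1), a scale that understates the ratio of so low a gene. Both differences had 1 sign in all 3 libraries. Sst, which marks the other large interneuron class of the same embryonic origin, stood at 131, 108 and 79.7 TPM and exceeded Pvalb by 6.39 ± 0.33. TPM were also rescaled to the sum of the longest coding rows of nuclear protein-coding genes. That sum leaves out all other rows of these genes, besides mitochondrial and noncoding genes. Pvalb then passed the limit at 1.23 TPM, but so did 71.5% of all protein-coding genes.

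The promoter windows of Pvalb and Cabp1, the lowest of the buffers and of the sensors on the longest row, are shown because for them the RefSeq start and the start of the deposited row coincide. Each holds the 250 bases before the start on the gene's own strand, from RefSeq (GRCm38.p6), with the dinucleotide CG in capitals.
Pvalb, chr15:78204238-78204487, minus strand: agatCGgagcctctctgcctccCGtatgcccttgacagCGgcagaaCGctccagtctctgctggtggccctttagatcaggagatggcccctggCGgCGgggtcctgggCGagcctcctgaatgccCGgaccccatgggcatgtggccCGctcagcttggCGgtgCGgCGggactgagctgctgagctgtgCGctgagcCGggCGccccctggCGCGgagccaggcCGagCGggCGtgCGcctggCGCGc
Cabp1, chr5:115194382-115194631, minus strand: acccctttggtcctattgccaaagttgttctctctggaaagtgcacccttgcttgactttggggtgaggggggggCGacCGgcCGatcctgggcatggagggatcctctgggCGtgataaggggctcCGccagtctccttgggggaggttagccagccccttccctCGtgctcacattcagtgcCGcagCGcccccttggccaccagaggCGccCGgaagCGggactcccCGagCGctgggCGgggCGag

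CG occurred 23 times in the Pvalb window and 15 times in that of Cabp1, where the median over 32851 RefSeq windows of this length was 6. Of all windows 86.7% had fewer CG than Pvalb and 72.7% fewer than Cabp1, and 92.1% held at least 1. The dinucleotide reads the same on both strands. RefSeq windows were found for 7 of the 10 genes, those other than Calb1, Calb2 and Ncald. CG counts ran from 4 in Caln1, whose window lies at a start 79343 bases from that of its row, to 34 in Ncs1, and Vsnl1, the highest gene, had 14. A TATA motif (TATAAA, either strand) was in none of the 7 windows and in 12.4% of all windows.

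The order of the levels was Vsnl1, Ncald, Hpca, Hpcal4, Ncs1, Calb1, Caln1, Calb2, Cabp1 and Pvalb. Of the 9 pairs of neighbours 8 kept their direction in 3 of 3 libraries, and 7 had ranges that did not overlap. Neighbours whose differences were smaller than the spread of their levels were Hpca and Hpcal4, as above, and Ncs1 and Calb1. Ncs1 minus Calb1 was 0.08 ± 0.24 (log2), positive in library 1 and negative in libraries 2 and 3 (p = 1 by exact permutation of signs, two-sided). On the highest rows, which are not protein-coding for either gene, Ncs1 exceeded Calb1 by 0.38 ± 0.18, higher in every library. Caln1 exceeded Calb2 by 0.33 ± 0.07 and Calb1 exceeded Caln1 by 0.40 ± 0.14. Calb2 exceeded Cabp1 by 0.65 ± 0.08 on the longest coding rows, but on the highest rows the difference was -0.36 ± 0.09. In all, 17 different pairs of genes were compared, 10 by kinship or role and 9 as neighbours, with 2 pairs in both. Exact permutation of the signs of the library differences, two-sided, returned p = 0.25 for each pair with 1 direction throughout. This is the smallest value that 3 libraries allow, so no pair could pass 0.05.

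**Figure D3:**
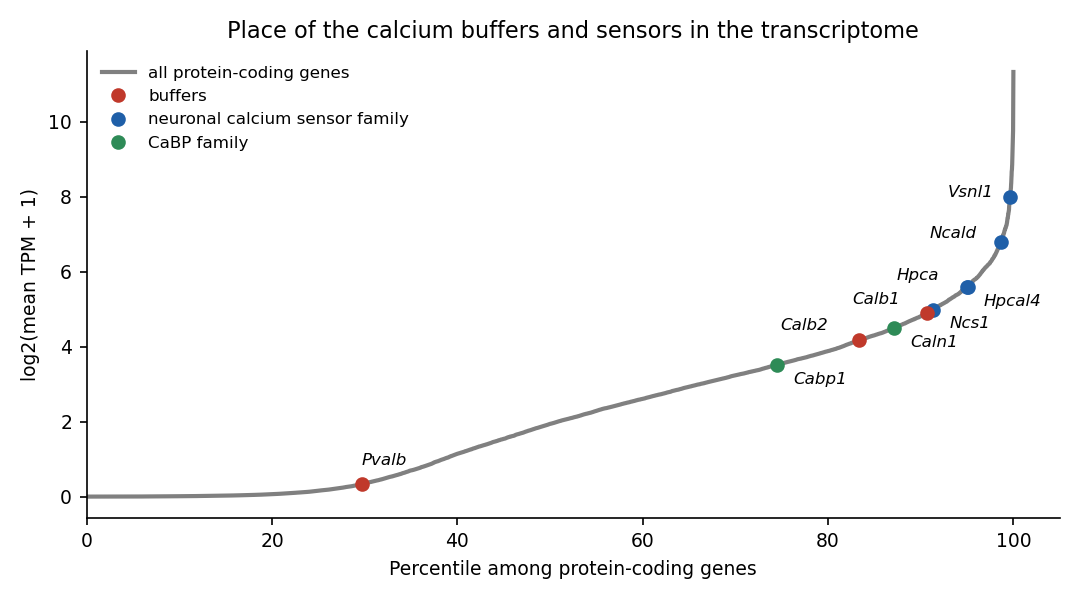
log2(mean TPM + 1) of all 18121 protein-coding genes against their percentile (grey line), with the 10 genes marked by family. The detected genes sit between percentile 74.5 (Cabp1) and 99.7 (Vsnl1), and Pvalb sits at percentile 29.7.

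The 10 genes differed in how much they varied between libraries. Calb2 had the smallest coefficient of variation at 1.91%, below the 2.98% that counting alone gives for its 1247, 1027 and 1127 reads. Of 2376 protein-coding genes within 1.5 times its level, 5.28% varied less. On the longest coding rows Calb1 and Ncs1 varied most among detected genes, at 14.6% and 13.7%, where counting gives 1.33% and 1.24%. Their highest rows varied less, with SDs of 3.28 at a mean of 30.25 TPM for Calb1 and 1.48 at 39.6 TPM for Ncs1. Genes of like level had a median of 7.204% around Calb1 and 7.25% around Ncs1. Pvalb varied by 57.7%, where counting its few reads gives 32.3%. In all, 5 of 10 genes varied less than the median of genes of their level.

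**Figure D4:**
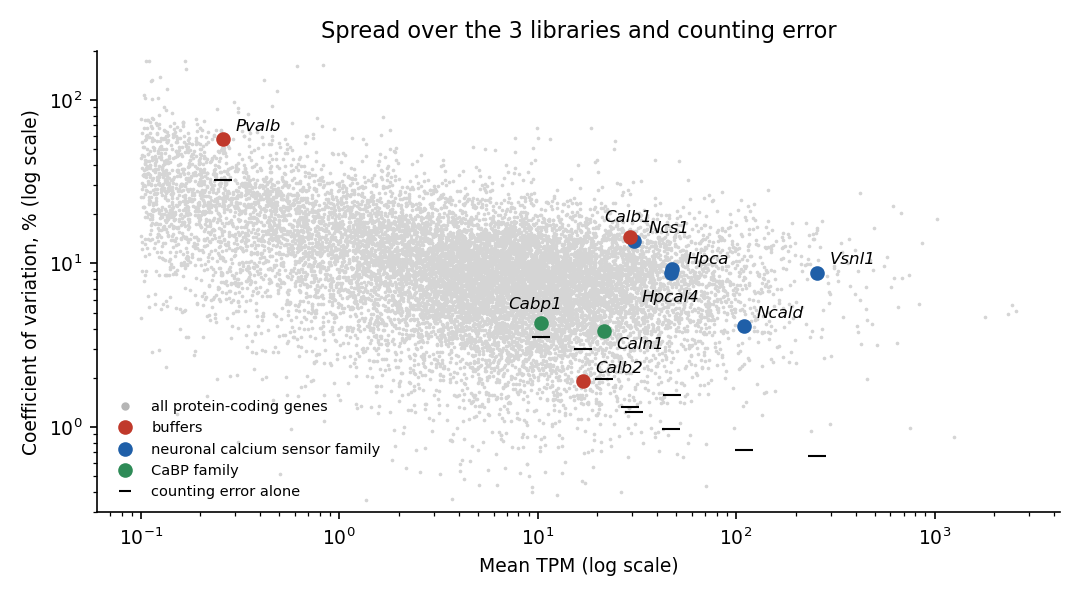
Coefficient of variation over the 3 libraries against mean TPM, both on log axes, for protein-coding genes above 0.1 TPM (grey) and the 10 genes (coloured by family), with the value expected from counting error alone as a black dash. Calb2 lies below its dash, Cabp1 just above it, and Calb1 and Ncs1 far above theirs.

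Library 2 gave the highest value for 8 of the 10 genes, where it did for 40.3% of detected protein-coding genes, and library 3 the lowest for 6 of 10, where it did for 40.8%. Of the 16 interneuron genes examined, 13 were highest in library 2 and 14 lowest in library 3. Gad1, which makes GABA, stood at 84.9, 107 and 61.5 TPM in libraries 1, 2 and 3, and the 6 interneuron markers summed to 288 TPM in library 2 and to 185 TPM in library 3. Calb1 and Pvalb were likewise highest in library 2, while Calb2 was lowest there, and library 3 was lowest for Pvalb but not for Calb1. Of the 6 pan-neuronal markers 5 were lowest in library 3 and 3 were highest in library 2, with sums of 1742, 1776 and 1534 TPM in libraries 1, 2 and 3. The astrocyte markers summed to 381, 399 and 457 TPM, with 1 of 6 lowest in library 3 (S100b) and 1 highest in library 2 (Slc1a2). The part of these shifts in the spread of the calcium-binding genes was not tested.

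Interneuron genes give the setting for the buffers. Of the 16 genes 15 passed 1 TPM and 7 passed 10 TPM, with a median log2 level of 3.33. Sst at 106 ± 25.9 TPM, the neuropeptide gene Cck at 103 ± 21.9 TPM, which excitatory neurons also express, Gad1 at 84.6 ± 23.0 TPM and the cannabinoid receptor gene Cnr1 at 35.3 ± 6.31 TPM were the highest. Htr3a, a serotonin receptor gene, did not pass 1 TPM, at 0.807 ± 0.263 TPM. Calb1 and Calb2 fell among them, below Cnr1. Vip, a partner of calretinin in 1 interneuron class, stood at 1.06, 3.17 and 1.19 TPM, lower than Calb2 in each library. Kcnc1 and Kcnc2, potassium channel genes known from fast-spiking cells, were detected at 5.85 ± 0.826 and 8.42 ± 2.74 TPM, and Pvalb was not. Which cells expressed Kcnc1 and Kcnc2 cannot be told in bulk libraries.

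Markers of other cells in which these genes are used as labels were also read. Of the Cajal-Retzius markers 2 of 6 were detected, with sums of 8.12 to 13.2 TPM. These were Reln and Ndnf, which interneurons also express, while Trp73, Lhx1, Lhx5 and Ebf3 stood between 0.0203 and 0.0487 TPM. Of the cerebellar markers 2 of 6 were detected, with sums of 68.5 to 89.1 TPM, nearly all from Pcp4 at 73.2 ± 11.1 TPM, which cortical neurons also express. Pcp2 of Purkinje cells was listed at 0 in all 3 libraries. Of the hippocampal markers 3 of 6 were detected, with sums of 19.9 to 23.8 TPM, led by Wfs1 at 14.0 ± 1.03 TPM, and Prox1 of dentate granule cells stood at 0.776 ± 0.159 TPM.

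Relatives in the EF-hand superfamily ranged from undetected to the level of Hpca on the longest coding rows. Of 8 relatives of the neuronal calcium sensors 5 were detected, namely Hpcal1 and the 4 genes of potassium channel interacting proteins. Kcnip4 stood at 22.8 ± 4.23 TPM and Kcnip1 at 18.0 ± 2.66 TPM. The photoreceptor genes Rcvrn, Guca1a and Guca1b stood at 0.308 ± 0.0124, 0.0498 ± 0.0440 and 0.0090 ± 0.0078 TPM. Of 4 CaBP relatives 1 was detected, Cabp7, the nearest relative of Caln1, at 2.23 ± 0.141 TPM, while Cabp2, Cabp4 and Cabp5 of the ear and retina lay at or below 0.0553 TPM. Of 8 other EF-hand genes 5 were detected, led by Necab1 at 50.7 ± 7.90 TPM. On the longest coding rows Necab1 lay above Hpca in libraries 2 and 3 but not in library 1. On the highest rows Hpca, at 68.6, 69.8 and 59.5 TPM in libraries 1, 2 and 3, lay above Necab1 in each library. Secretagogin (Scgn) and oncomodulin (Ocm), buffers related to calretinin and parvalbumin, stood at 0.0845 ± 0.0233 and 0.485 ± 0.137 TPM, and S100g, an intestinal calcium-binding gene, at 0.0288 ± 0.0250 TPM.

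**Figure D5:**
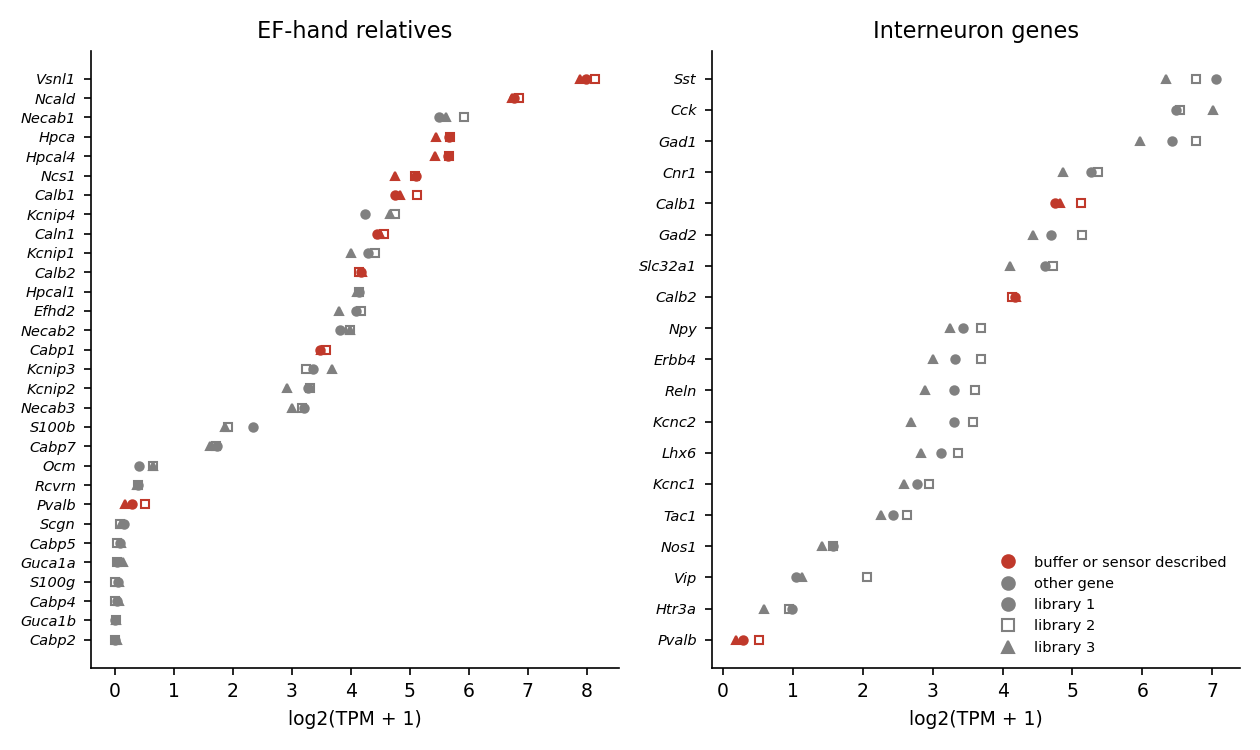
log2(TPM + 1) in libraries 1, 2 and 3 (symbols) for the EF-hand relatives (left) and the interneuron genes (right), with the calcium buffers and sensors described here in red. Necab1, at 50.7 TPM, is the highest of the relatives on the left, below Vsnl1 and Ncald, and Pvalb lies below every interneuron gene by mean on the right.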

How the data were processed

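The 3 libraries were poly(A)-selected and made with a stranded kit, per the labels' protocols. The authors deposited 1 table of TPM per transcript row, summing to 1000000 in each library. The submitters' processing notes list Trimmomatic, Bowtie, TopHat and HTSeq, without versions. How reads shared by overlapping rows, or antisense reads, were counted is not given in the sources used here. Of 84660 rows 83017 matched GENCODE M21 (mm10) by identifier and 82970 were given a gene. A gene was read from its longest protein-coding transcript and rows were never summed. TPM multiplied by exonic length gave whole reads (within 0.01) in 98.7% of matched rows above 0, and 1 TPM on 2 kb stood for 102.5, 86.5 and 91.4 reads. Read counts of the library pairs differed by 13.1 to 19.9 chi-square units per degree of freedom, more than counting error gives, so no library was counted as a second deposit of another. This does not show that they came from separate cultures. Levels were compared within libraries as log2(TPM + 1), by exact permutation of the signs of the library differences, two-sided. Counting error is the Poisson error of the recovered reads, and reads of PCR copies are not independent, so it covers counting only. The recovery of reads and of raised levels was tested on simulated reads with counting error only, a smaller spread than these libraries hold. The other calculations were not tested on simulated data. All were run in Python 3.11.15 with pandas 2.3.3, numpy 2.4.6 and matplotlib 3.10.9. No per-sample column was left unused. The 10 genes, the lists of relatives and the markers were chosen by role with earlier results of these data known. The text names all 10 genes and, of each list of relatives and of the interneuron genes, up to the 4 highest and those at or near 0. One short list of relatives is not reported here. Vip, Kcnc1, Kcnc2, Prox1 and the named markers of other cells were picked for their role after their values were seen.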

Additional observations from a re-analysis of the deposited data

How the results depend on the processing

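Of 119 alternatives over the 17 pairs 2 turned the direction. Calb2 minus Cabp1 was -0.36 on the highest rows, and Ncs1 minus Calb1 ran from -0.056 to 0.159 with 1 library left out, negative without library 1. On the highest rows Ncs1 minus Calb1 was 0.38. The sensors exceeded the buffers by 2.44 with list means, and by 1.358 to 1.497 with 1 library left out. The number of genes detected was 9 under every alternative but rescaling to nuclear protein-coding genes, where it was 10. Rescaling multiplied TPM by 4.70 to 4.87, since its sum holds only the longest coding row of each nuclear protein-coding gene. The other rows of these genes, which share reads with that row, were left out along with mitochondrial and noncoding genes. Rescaling moved the median of all protein-coding genes by 1.92 on the log2(TPM + 1) scale, and all 10 levels with it, while no pair turned. Highest rows moved the levels of 5 genes by more than their SD (Hpca, Ncald, Ncs1, Caln1 and Cabp1). Among detected genes alone Cabp1 sat at percentile 58.5. The median spread of the 10 genes was 8.76%, and 6.65% on the highest rows, an alternative chosen after seeing the data. No paired analysis was possible because all libraries belong to 1 group, so no groups share replicate numbers; genes were compared within libraries. Depth limits Pvalb, with 6 to 18 reads per library.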
